A study of Mus musculus with 30 samples.

Results

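The genes described here are 10 members of the matrix metalloproteinase (MMP) and tissue inhibitor of metalloproteinase (Timp) families in the healing digit tip of the mouse. They are Mmp2, Mmp3, Mmp9, Mmp10, Mmp12, Mmp13, Mmp14, Timp1, Timp2 and Timp3, taken by gene symbol from 20321 genes in the deposited tables. They were selected on their levels over the same time course, so that their levels and differences over time are given as a description, without p-values. For the members, tests are read only for contrasts that the selection did not use, which are the dates in the sample titles and the foot. The foot was taken up only after the values had been seen, so that its p-values describe a split already known. Time-course p-values are given for further listed genes and are no independent support.

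RNA came from digit 3 of the hindlimb of adult male C57Bl/6 mice, 9 to 10 weeks old, in which at most 33% of the terminal phalanx (P3) had been cut away and the wound left without sutures. The labels name no transgene, mutant allele or drug for any group, and the 0 h mice were amputated too, so that every group carried the injury. Digits were collected from 3 mice per time point on the first day (0, 3, 6, 12 and 24 h), then at 3 d, 14 d and 21 d, and from 6 mice at 7 d, which makes 9 time points and 30 mice, with 1 library of polyadenylated RNA per mouse. The titles carry dates that fall into an earlier range, July to August (16 mice), and a later range, November to January (14 mice). All mice at 3 h and 12 h were of the earlier dates and all mice at 21 d of the later dates, so that at these times dates and time cannot be told apart. The titles put 3 of the 6 mice at 7 d on the left foot, all of later dates, and all other mice on the right foot.

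The libraries held between 3167625 and 16277816 expected counts each (median 6103688), with medians of 5083528 in the earlier and 9836324 in the later dates. Later and earlier dates differed in 3319 of 13793 genes tested, and no library was left out of the values given here unless stated. The tissue held skin as well as bone: 8 keratinocyte markers summed to between 34100 and 94740 CPM in every mouse, and 8 osteoblast markers to between 745 and 24460 CPM. A sum weighs the most abundant genes of a list most, and the osteoblast list includes the collagen gene Col1a1. CPM, the unit used for single genes, are counts scaled to library size and normalized by TMM. Comparisons between genes use TPM, which also divide by transcript length.

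Matrix metalloproteinases are zinc-dependent enzymes that cut collagens, proteoglycans and other proteins outside the cell, and most are secreted as inactive precursors that must be cleaved. Tissue inhibitors of metalloproteinases bind the active site of these enzymes and block it. In bone and skin repair, the families are known for clearing damaged matrix, for letting cells move and for the resorption of bone by osteoclasts.

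In the GRCm38 annotation, 4 of the members lie on the same strand of chromosome 9 within 237.7 kb, in the order Mmp13 (chr9:7272514-7283331), Mmp12 (chr9:7344381-7369499), Mmp3 (chr9:7445822-7455975) and Mmp10 (chr9:7502352-7510240). The only other protein-coding gene wholly inside that stretch is Mmp1b, which lies on the opposite strand and overlaps 157 exon bases of Mmp12. The other members are scattered: Mmp9 at chr2:164940780-164955850, Mmp2 at chr8:92827291-92853420, Mmp14 at chr14:54431612-54445364, Timp1 at chrX:20870166-20874735, Timp2 at chr11:118301069-118355740 (minus strand) and Timp3 at chr10:86300372-86349506. Timp3 lies inside Syn3, a gene of the opposite strand, with which it shares 1733 exon bases, and whether the counting used strand is not given in the sources used here. Mmp3 and Mmp10 are close copies, and 14.6% of the 31-base stretches of the Mmp3 transcript occur in another gene, as do 11.9% of those of Mmp10. At most 0.447% of the stretches were shared in each of the other 8 members.

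Promoter sequences in RefSeq (GRCm38.p6, 250 bases before to 50 after a start) were matched for 8 of the 10 members, with 9 starts, and not for Mmp2 and Mmp9. The windows were searched on both strands for the motif TGANTCA and for GGGCGG, a GC box. N is any base, so that TGANTCA takes in the letters bound by AP-1 factors and others besides, also in the share of all promoters. The motif TGANTCA was present before Mmp13, Mmp3, Mmp10 and the downstream of 2 starts of Mmp12, and in 7.81% of 32851 promoters of the same length. It was not found before Mmp14, Timp1, Timp2 and Timp3, whose windows held GGGCGG instead, as did 35.7% of all promoters. None of the 4 genes of the chromosome 9 cluster held GGGCGG. The 100 bases before the start are shown for the cluster genes with the AP-1 letters and for Mmp14 and Timp1, whose windows hold the GC box, with the matched letters in capitals. All are on the plus strand.
Mmp13 (chr9:7272414-7272513): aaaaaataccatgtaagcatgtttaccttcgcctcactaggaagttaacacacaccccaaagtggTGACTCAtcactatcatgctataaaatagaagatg
Mmp3 (chr9:7445722-7445821): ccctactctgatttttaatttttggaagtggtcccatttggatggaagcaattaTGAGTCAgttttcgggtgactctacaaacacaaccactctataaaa
Mmp10 (chr9:7502242-7502341): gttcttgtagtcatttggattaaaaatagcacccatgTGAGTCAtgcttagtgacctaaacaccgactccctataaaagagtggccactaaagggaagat
Mmp12 (chr9:7347274-7347373): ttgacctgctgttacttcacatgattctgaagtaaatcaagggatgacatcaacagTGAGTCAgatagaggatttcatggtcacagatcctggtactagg
Mmp14 (chr14:54431498-54431597): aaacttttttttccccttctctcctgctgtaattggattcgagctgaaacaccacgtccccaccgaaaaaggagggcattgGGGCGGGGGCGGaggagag
Timp1 (chrX:20870066-20870165): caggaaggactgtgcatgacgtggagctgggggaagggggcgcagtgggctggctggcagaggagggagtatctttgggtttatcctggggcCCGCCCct
The first base of TGANTCA lay 35 bases before the start in Mmp13, 46 in Mmp3, 44 in Mmp12 and 63 in Mmp10. In Timp1 the box is read on the other strand. A match is a description of the letters and says nothing of binding.

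Against 0 h, the members fell into an early, a middle and a late set. At 24 h the highest differences were those of Mmp3, Mmp13 and Timp1, and at 7 d Mmp9 and Mmp12 had joined them. At 21 d Mmp9, Timp1 and Mmp13 led, followed by Mmp10, Mmp14, Mmp12, Mmp2 and Timp2. In that order, the place of Mmp12 rests on 1 mouse and that of Mmp10 on low counts at 0 h. Timp3 moved least. With edgeR's quasi-likelihood F-test over all time points, 9 of the 10 members were past an adjusted p of 0.05, all but Timp3, as were 9.01% of the 13793 genes tested. Higher at 24 h were 3 members and 0.406% of all genes, at 7 d 6 members and 1.68% of all genes, and at 21 d 6 members and 1.73% of all genes. No member was lower at these times. Since these contrasts chose the members, nothing is read from the counts. The median log2 fold change of the members was 0.69 at 24 h, 3.31 at 7 d and 1.86 at 21 d, beside medians between -0.01 and 0.01 over all genes tested.

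**Figure D1:**
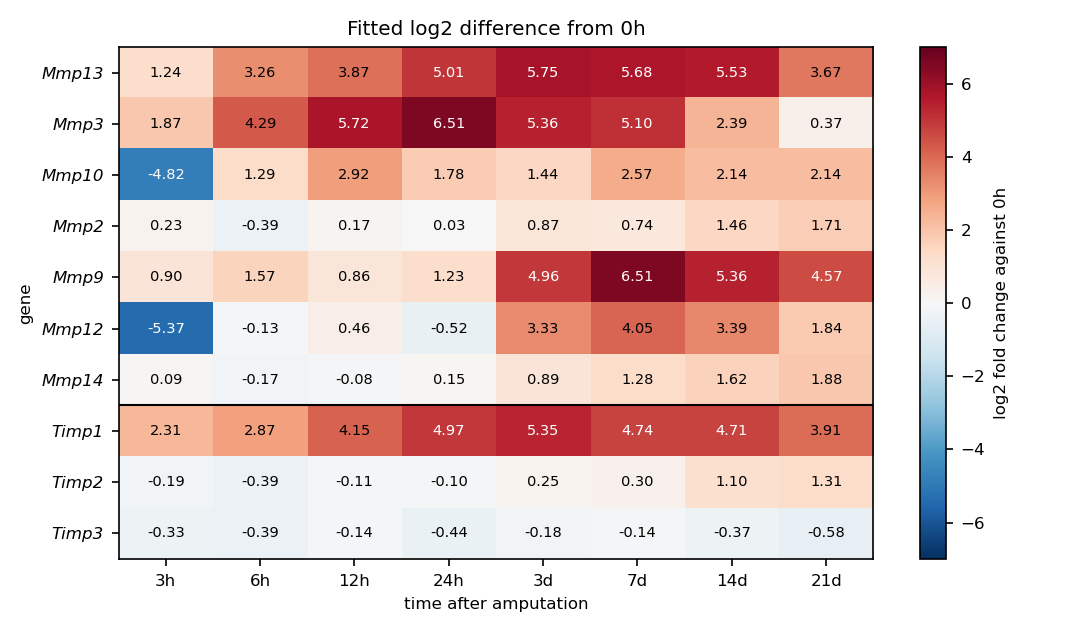
Fitted log2 fold change against 0 h (colour and printed number) for the 10 members (rows, enzymes above the line and inhibitors below it) at 8 time points (columns). Mmp3 peaks at 24 h with 6.51, Mmp9 at 7 d with 6.51, and Mmp2, Mmp14 and Timp2 at 21 d with 1.71, 1.88 and 1.31. The negative values of Mmp10 and Mmp12 at 3 h rest on 0 counts in every mouse and are no measured fold.

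Mmp13, the main collagenase of rodents, was nearly silent in the fresh stump and was high from 24 h to 14 d. It had 3.04, 1.60 and 9.28 CPM in the 3 mice at 0 h and 6.32, 8.94 and 17.0 CPM at 3 h, and these groups overlapped. At 6 h it had 56.0, 26.1 and 44.4 CPM, and at 24 h 181, 173 and 71.8 CPM, and from 6 h on every mouse was above every 0 h mouse. The highest mean was that of 3 d, 238 ± 112 CPM (SD, n = 3), with 131, 354 and 228 CPM in the mice. The 6 mice at 7 d ran from 76.1 to 495 CPM with a median of 146, and at 14 d the values were 60.9, 182 and 365 CPM. By 21 d the gene had come down to 91.3, 54.6 and 22.1 CPM. The fitted log2 fold change against 0 h was 5.01 (SE 0.78) at 24 h, 5.68 (SE 0.78) at 7 d and 3.67 (SE 0.75) at 21 d. The means of 3 d, 7 d, 14 d and 24 h, the highest in that order, did not stand apart from each other beyond the spread of the mice.

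Mmp3, stromelysin 1, cuts proteoglycans and also activates other MMP precursors. It moved early and by far: from 9.68, 7.57 and 9.28 CPM at 0 h it had reached 15.1, 35.5 and 47.4 CPM at 3 h and 237, 120 and 164 CPM at 6 h. At 12 h the mice had 258, 450 and 692 CPM and at 24 h 870, 797 and 760 CPM, so that the 24 h mice were above all mice of every other time point. The mean at 24 h was 809 ± 56.4 CPM (SD, n = 3), or 91.5-fold that of 0 h. Levels then came down, to 246, 520 and 327 CPM at 3 d and 14.5, 51.5 and 72.3 CPM at 14 d, and at 21 d the 16.4, 11.1 and 6.73 CPM overlapped those of 0 h. In the fit this was a log2 fold change of 6.51 (SE 0.85) at 24 h, 5.10 (SE 0.77) at 7 d and 0.37 (SE 0.71) at 21 d. At 7 d the 6 mice formed 2 sets that do not overlap, 3 mice between 66.5 and 67.6 CPM and 3 between 454 and 630 CPM, which were the left and the right feet. Without the left feet, the log2 fold change at 7 d was 5.96.

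Mmp10, stromelysin 2, stayed low throughout. It had at most 41 counts in a mouse and 0 counts in all 3 mice at 3 h, where 3 counts, taken as the smallest number that the depth can show, would be 0.611 to 1.084 CPM. Its highest mean was at 12 h, with 2.62, 4.71 and 3.95 CPM, at least 4.77-fold above the floor of 3 counts per library at 3 h. At 0 h the mice had 0.32, 1.066 and 0 CPM. No 2 neighbours in the order of its time points stood apart, and the reads that it shares with the far more abundant Mmp3 leave its level uncertain.

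**Figure D2:**
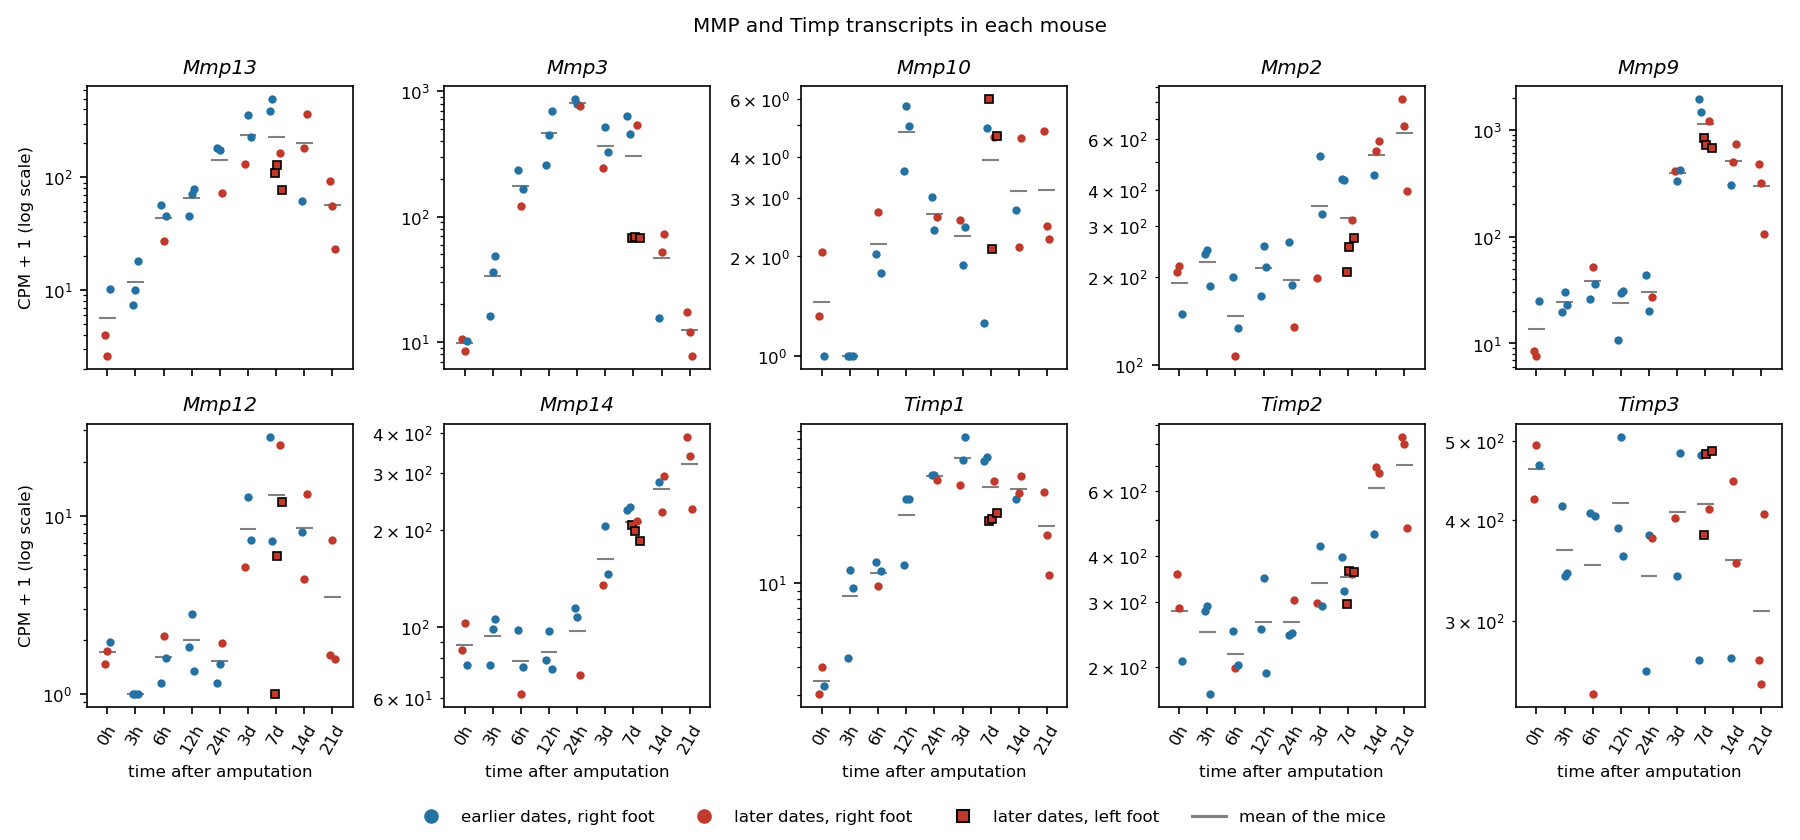
CPM plus 1 on a log axis for each of 30 mice (points) at 9 time points, 1 panel per member, coloured by the dates in the titles, with squares for left feet and a grey line for the mean. Mmp3 runs from 7.57 to 9.68 CPM at 0 h to 760 to 870 CPM at 24 h, Mmp9 stays at or under 50.9 CPM up to 24 h and reaches 1943 CPM at 7 d, and Timp3 stays between 243 and 505 CPM.

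Mmp9 and Mmp2 are the gelatinases, which cut denatured collagen and collagen IV of basement membranes, and Mmp9 is abundant in osteoclasts and neutrophils. Their courses differed. Mmp9 had 7.52, 6.61 and 24.2 CPM at 0 h and 42.4, 19.1 and 26.4 CPM at 24 h, and these groups overlapped. At 3 d the values were 414, 330 and 423 CPM, and at 7 d they ran from 675 to 1943 CPM with a median of 1027. The 14 d mice had 305, 503 and 735 CPM and the 21 d mice 473, 313 and 104 CPM, so that all mice from 3 d on were above all mice of the earlier times. Against 0 h, the fitted log2 difference was 1.23 (SE 0.52) at 24 h, 6.51 (SE 0.61) at 7 d and 4.57 (SE 0.58) at 21 d. Osteoclast markers moved with it: 8 of 8 were in the table and summed to between 90.3 and 110 CPM at 0 h, 79.0 to 103 CPM at 24 h, 234 to 285 CPM at 3 d, 365 to 1303 CPM at 7 d and 137 to 318 CPM at 21 d. Neutrophil markers (10 of 10 in the table) summed to between 17.9 and 33.5 CPM at 0 h and 75.9 to 245 CPM at 7 d, with Elane at 0 in all mice of both times. In bulk tissue, more cells of a type and more RNA per cell cannot be told apart, and the part of either marker list in the result was not tested.

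Mmp2 was present from the start, with 207, 217 and 148 CPM at 0 h, and each group of the first day overlapped this range. Its mean was lowest at 6 h, with 199, 106 and 134 CPM, where 2 mice were below every 0 h mouse. At 24 h the mice had 264, 187 and 134 CPM. It had 448, 544 and 588 CPM at 14 d and 820, 664 and 395 CPM at 21 d, above every 0 h mouse, while the 7 d mice, from 208 to 436 CPM with a median of 293, still overlapped them. The log2 fold change was 0.03 (SE 0.32) at 24 h, 0.74 (SE 0.29) at 7 d and 1.71 (SE 0.33) at 21 d. No neighbouring pair in the order of its time points stood apart.

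Mmp12, the macrophage elastase, appeared late and at low levels. It had 6, 7 and 6 counts at 0 h and 0 counts in all 3 mice at 3 h, and it did not exceed 11 counts in a mouse up to 24 h. At 3 d it had 4.13, 11.8 and 6.31 CPM, above every earlier mouse. The 7 d mice ran from 0 to 26.7 CPM with a median of 8.58, and the mouse at 0 was a left foot. The mean of 7 d, 12.1 ± 10.8 CPM (SD, n = 6), was at least 15.3-fold above the floor of 3 counts per library at 3 h, and the log2 fold change against 0 h was 4.05 (SE 1.1). At 21 d the mice had 0.648, 6.31 and 0.57 CPM, and only 1 of them was above every 0 h mouse. Without that mouse, the log2 fold change at 21 d went from 1.84 to -0.21. Macrophage markers (9 of 10 in the table) summed to between 145 and 189 CPM at 0 h and 149 to 491 CPM at 7 d, and their part in the result was not tested.

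Mmp14, the membrane-bound MT1-MMP, cuts fibrillar collagen at the cell surface and activates pro-MMP2. It had 83.8, 102 and 75.4 CPM at 0 h, 113, 106 and 69.9 CPM at 24 h and 134, 205 and 145 CPM at 3 d, and from 3 d on every mouse was above every 0 h mouse. At 7 d it ran from 184 to 235 CPM with a median of 210, the tightest group of 6 among the enzymes. The highest mean was that of 21 d, with 389, 338 and 232 CPM, and its mice overlapped those of 14 d. Its fitted log2 fold change was 0.15 (SE 0.22) at 24 h, 1.28 (SE 0.20) at 7 d and 1.88 (SE 0.22) at 21 d.

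The inhibitors divided in the same way. Timp1, a secreted inhibitor that is inducible in many cell types, had 1.04, 2.03 and 1.28 CPM at 0 h, and 2.45, 11.2 and 8.31 CPM at 3 h, already above every 0 h mouse. It went on to 46.6, 46.9 and 43.5 CPM at 24 h and 40.0, 57.9 and 81.6 CPM at 3 d, the highest mean, 59.8 ± 20.9 CPM (SD, n = 3). At 7 d it ran from 23.6 to 60.6 CPM with a median of 34.6, and at 21 d the mice had 36.2, 19.1 and 10.3 CPM. These levels gave a log2 fold change of 4.97 (SE 0.55) at 24 h, 4.74 (SE 0.53) at 7 d and 3.91 (SE 0.54) at 21 d. All mice from 3 h to 21 d were above all mice at 0 h.

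Timp2, which inhibits MMPs and is also part of the complex by which MT1-MMP activates pro-MMP2, followed the late set. It had 356, 288 and 207 CPM at 0 h and 244, 247 and 302 CPM at 24 h, and the 7 d mice, from 296 to 397 CPM with a median of 358, still overlapped 0 h. At 14 d it had 457, 696 and 670 CPM and at 21 d 838, 800 and 474 CPM, above all mice of the earlier times. The log2 fold change was -0.10 (SE 0.25) at 24 h, 0.30 (SE 0.22) at 7 d and 1.31 (SE 0.25) at 21 d. Fibroblast markers (8 of 8 in the table) moved with the late set of Mmp2, Mmp14 and Timp2, from a sum of 4803 to 8443 CPM at 0 h to 24780 to 44250 CPM at 21 d. The sum of the osteoblast markers went from 1258 to 3263 CPM to 15690 to 24460 CPM. Such sums follow the most abundant genes. Averaged over the genes of the list, log2(CPM + 1) went from 7.97 to 9.28 for fibroblast and from 5.23 to 6.81 for osteoblast markers. The part of these markers in the results was not tested.

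Timp3, the inhibitor that stays bound to the matrix, had the smallest ratio of highest to lowest mean among the members. It had 423, 493 and 466 CPM at 0 h, 260, 382 and 379 CPM at 24 h and 268, 250 and 406 CPM at 21 d, and its highest mean, at 0 h, was 1.496-fold its lowest, at 21 d. The log2 fold change was -0.44 (SE 0.24) at 24 h, -0.14 (SE 0.21) at 7 d and -0.58 (SE 0.24) at 21 d, and no neighbouring pair of time points in its order stood apart. Every mouse at 3 h, 6 h, 24 h and 21 d was below every 0 h mouse.

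Per transcript length, the composition of the member enzymes and of the member inhibitors turned over during healing. At 0 h, Mmp2 and Mmp14 held 58.1% ± 5.58 and 31.1% ± 1.86 (SD, n = 3) of the summed TPM of the 7 enzymes. At 24 h Mmp3 alone held 73.8% ± 5.37, at 7 d Mmp9 held 45.9% ± 4.89 (SD, n = 6), and at 21 d Mmp2 and Mmp14 again led with 46.3% ± 2.58 and 28.5% ± 4.75, Mmp9 still holding 19.1% ± 6.08. Among the 3 inhibitors, Timp1 went from 0.955% ± 0.314 of their TPM at 0 h to 27.6% ± 6.31 at 3 d and back to 8.61% ± 3.91 at 21 d.

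The summed TPM of the member enzymes grew more than that of the member inhibitors. These members were selected on their levels over this time course, and other MMPs and Timp4 are not in the sums. The enzymes summed to 229 ± 17.0 TPM at 0 h, 1282 ± 397 at 24 h, 1821 ± 1073 (SD, n = 6) at 7 d and 896 ± 330 at 21 d. The inhibitors summed to 373 ± 19.9, 396 ± 67.9, 498 ± 110 and 557 ± 92.1 TPM at the same times. In single mice the ratio of the sums was 0.590, 0.644 and 0.607 at 0 h, 0.748, 0.929 and 1.111 at 3 h, and 4.02, 3.08 and 2.52 at 24 h. At 7 d it was 1.93, 2.08 and 2.62 in the left feet and 4.05, 4.42 and 5.88 in the right feet. From 6 h to 21 d the ratio was above 1 in every mouse, between 1.18 and 5.88, and at 0 h below 1 in every mouse. These are ratios of transcripts, and without the division by length the ratio was under 1 in all 3 mice at 6 h (0.823 ± 0.0934), in 1 mouse at 12 h (0.866) and in 1 at 21 d (0.855).

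**Figure D3:**
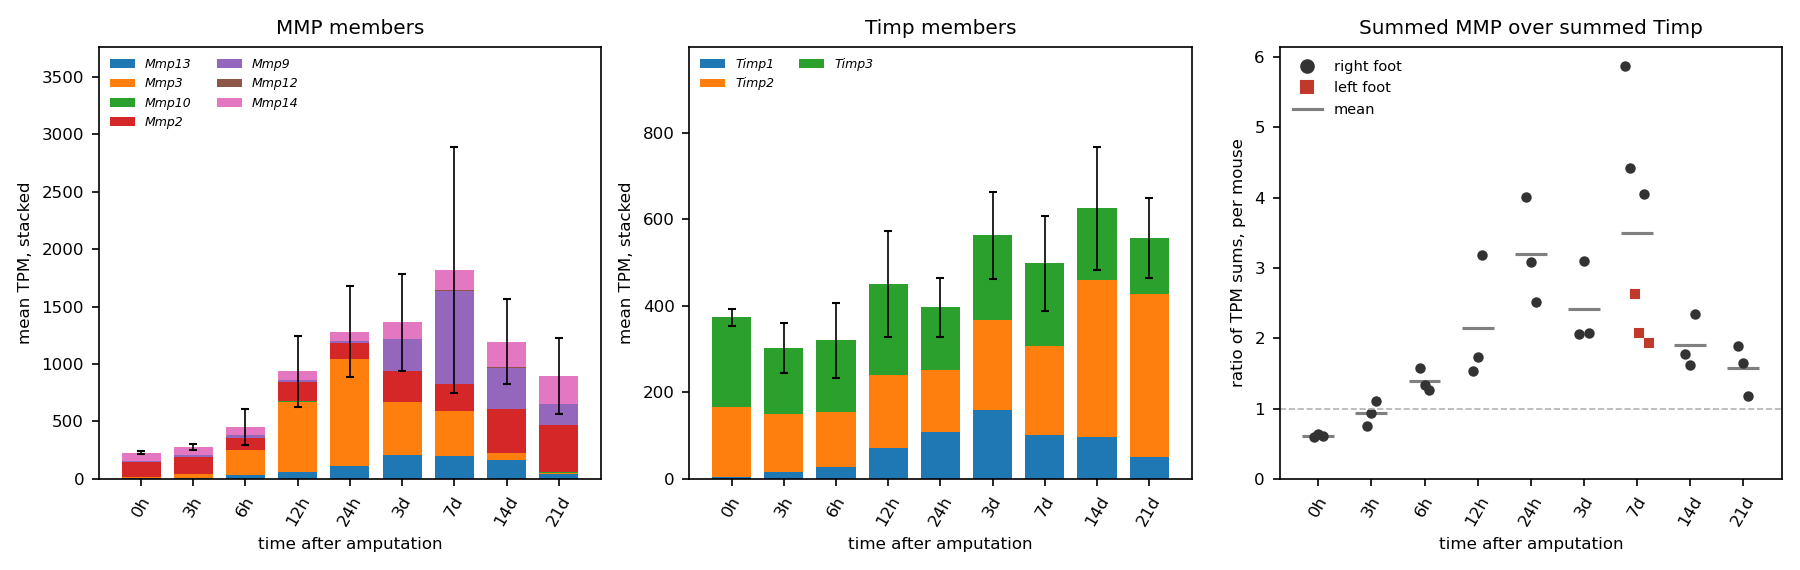
Mean TPM of the 7 enzymes (left) and the 3 inhibitors (middle) stacked by gene at each time point, with the SD of the sum over mice as bars, and the ratio of the sums in each mouse (right; squares are left feet, grey lines means, the dashed line 1). The ratio goes from 0.613 ± 0.0277 (SD, n = 3) at 0 h to 3.20 ± 0.756 at 24 h and 1.57 ± 0.365 at 21 d, and the 3 left feet at 7 d lie below the 3 right feet.

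The dates of the titles were not used to choose the members, so that later against earlier dates could be tested with time point in the model. By edgeR's quasi-likelihood test, 2 of the 10 members were lower in the later dates, as were 10.8% of all genes tested. No member was higher, beside 13.3% of all genes tested. Mmp13 fell by 1.17 on the log2 scale (SE 0.31, adjusted p = 0.00630) and Mmp2 by 0.47 (SE 0.17, adjusted p = 0.0404). At 6 h, for example, Mmp13 had 56.0 and 44.4 CPM in the earlier dates and 26.1 CPM in the later, and at 24 h 181 and 173 CPM against 71.8 CPM. Without the 3 left feet, neither passed, with a fall by 0.90 on the log2 scale for Mmp13 (adjusted p = 0.0802) and by 0.38 for Mmp2 (adjusted p = 0.167). The differences against 0 h were of like size within both ranges for Mmp13 at 24 h, 4.11 on the log2(CPM + 1) scale in the earlier dates (2 mice against 1) and 4.49 in the later (1 mouse against 2). For Mmp3 these were 6.34 and 6.31 at 24 h, and 5.70 and 3.58 at 7 d, where the later mice include the left feet. For Mmp2 they went in opposite directions at 24 h, with 0.58 in the earlier and -0.66 in the later dates.

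Whether the time course itself differed between the date ranges was tested as an interaction over the 21 mice of the 6 time points that hold both. It was past the threshold in 1 member, Mmp13 (adjusted p = 0.0254), and in 0.883% of 13587 genes. More members passed under other settings: without a filter on low counts also Mmp2, Mmp3 and Mmp9 (adjusted p = 0.00767, 0.0319 and 1.76e-05), with DESeq2's test also Mmp2 and Mmp9 (0.00614 and 1.58e-05), and without the left feet also Mmp3 (0.0358). Mmp9 had an adjusted p of 0.0617 and the other 8 members between 0.158 and 0.964. The Mmp13 call rested on single mice: its adjusted p went to 0.761 without the 1 earlier mouse at 14 d, which had 60.9 CPM against 182 and 365 CPM in the later mice. All 14 d mice then leave the test, since that time no longer holds both ranges. The same holds for 24 h without its 1 later mouse. The call was also lost without any of 5 other mice (adjusted p from 0.0518 to 0.0703). At the other 5 time points tested, 0 h, 6 h, 24 h, 3 d and 7 d, the order was the other way, with every later mouse below every earlier one.

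At 7 d the left and the right feet were compared, a contrast taken up after the values were seen. With time point and dates in the model, Mmp3 was the only gene past the threshold, or 0.00725% of the 13793 tested, with a log2 difference of left against right of -2.98 (SE 0.45, adjusted p = 0.00509 by edgeR's quasi-likelihood test). The left feet had 66.5, 67.6 and 67.2 CPM and the right feet 630, 454 and 536 CPM. The right-foot mouse with 536 CPM carried the same date in its title as the left-foot mice. Leaving out either of 2 left-foot mice took the adjusted p to 0.0854 and 0.0963, with the difference between -2.88 and -3.08 whichever of the 6 mice was left out. At an unadjusted p under 0.05 there were 1681 genes, and the other settings with all 6 mice called from 1 to 78 genes, each time with Mmp3 among them.

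No other member passed. All left feet were below all right feet in 6 of the 10 members, Mmp2, Mmp3, Mmp9, Mmp13, Mmp14 and Timp1, and in 8.9% of all genes tested. This order takes no account of the dates: the left feet were all of later dates, the right feet of both ranges. With dates in the model, the log2 difference of left against right was -0.04 (SE 0.21) for Mmp14 and -0.43 (SE 0.30) for Mmp2. For Mmp9 the left feet had 837, 716 and 675 CPM and the right feet 1943, 1461 and 1217 CPM (adjusted p = 0.403). Mmp13 had 109, 127 and 76.1 CPM against 386, 495 and 165 CPM (adjusted p = 0.444), and Timp1 23.6, 24.4 and 26.7 CPM against 57.0, 60.6 and 42.5 CPM (adjusted p = 0.379). Timp2, Timp3, Mmp10 and Mmp12 overlapped between the feet. Osteoclast markers summed to between 365 and 582 CPM in the left and 623 to 1303 CPM in the right feet, with 4 of 8 lower in every left foot, and macrophage markers to between 149 and 203 CPM against 192 to 491 CPM. The part of these markers, and of any difference in surgery or healing between the feet, was not tested.

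**Figure D4:**
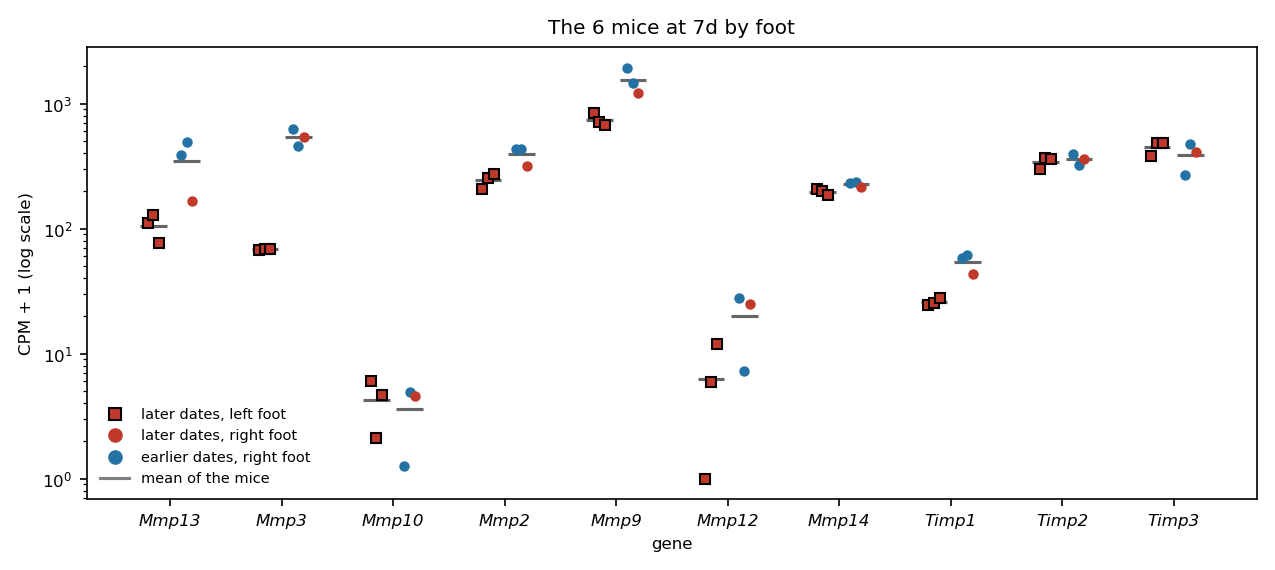
CPM plus 1 on a log axis for the 6 mice at 7 d (points; squares are left feet, circles right feet, blue the earlier and red the later dates, lines the mean of 3 mice), by member. Mmp3 has 66.5 to 67.6 CPM in the left and 454 to 630 CPM in the right feet, while Timp2 and Timp3 overlap.

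The genes whose patterns were most like those of the members over the 30 mice were picked by Pearson's r of log2(CPM + 1) among 10849 genes with a mean of at least 5 CPM. The mice share time points and dates, so r is a description. For Mmp9 they were Ctsk (r = 0.966), Atp6v0d2 (0.950) and Acp5 (0.932), a protease, a proton pump subunit and a phosphatase known from osteoclasts. For Mmp14 they were the collagen genes Col3a1 (r = 0.956), Col5a2 (0.940) and Col6a2 (0.938), for Mmp2 Mxra8 (0.943), Postn (0.937) and C1qtnf6 (0.936), and for Timp2 Sparc (0.921), Col5a1 (0.904) and Srpx2 (0.900). For Mmp3 they were the cytokine gene Lif (r = 0.919), Sfrp4 (0.887) and Serpina3n (0.850). Mmp13 and Timp1 shared Tnfsf11, which encodes the osteoclast-inducing cytokine RANKL, at 0.905 and 0.895, and the zinc transporter gene Slc39a14, at 0.882 and 0.856. The remaining genes were Slc16a3 for Mmp13 (r = 0.887) and S100a8 for Timp1 (0.867). Mmp12 was most like Rac2 (0.844), Atp6v0d2 (0.814) and Adck3 (0.784), Timp3 most like Gsn (0.748), Txnip (0.742) and Ildr2 (0.728), and Mmp10 most like Ak1 (0.6998), Mlec (0.673) and D030056L22Rik (0.669). Between members, r was highest for Mmp13 with Timp1 (0.931), Mmp2 with Mmp14 (0.892) and Mmp2 with Timp2 (0.873).

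Around the members, 47 further genes of extracellular proteolysis were listed (other MMPs and inhibitors, the plasminogen system, ADAMTS and ADAM proteases, cathepsins and surface partners). Of these, 36 had enough counts to be tested and 17 passed the F-test over time, beside 9.01% of all genes tested. Higher were 3 at 24 h, 7 at 7 d and 8 at 21 d, beside 0.406%, 1.68% and 1.73% of all genes, and none was lower at these times. The lists were drawn up with earlier results of the time course known, so that these counts and the p-values of their genes are no independent support. Of the 16 other MMPs, 7 were tested. By edgeR's quasi-likelihood test, Mmp19 was higher at 7 d (log2 fold change 1.59, SE 0.41, adjusted p = 0.0293) and 21 d (1.97, SE 0.45, adjusted p = 0.0126), and Mmp23 at 21 d (2.72, SE 0.68, adjusted p = 0.0266).

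In the plasminogen system, whose product plasmin can cleave MMP precursors, the 5 genes tested passed the F-test. Plaur, the urokinase receptor, rose at 24 h by a log2 fold change of 2.38 (SE 0.44, adjusted p = 0.00440) and was also higher at 7 d and 21 d (2.32 and 2.29). Plat, tissue plasminogen activator, was higher at 21 d (1.47, SE 0.34, adjusted p = 0.0151), while Plau, Serpine2 and Serpinb2 passed the F-test alone, with their highest means at 24 h, 3 d and 3 h. Of the 10 ADAMTS genes, 6 passed the F-test. Adamts4, an aggrecanase, rose at 24 h (3.39, SE 0.55, adjusted p = 0.000998), 7 d (2.90) and 21 d (2.43), and Adamts9 at 24 h (2.16) and 7 d (1.68). Adamts3 was higher at 7 d (1.81) and Adamts2 at 21 d (1.26), both procollagen peptidases, and Adamts1 and Adamts12 passed the F-test with their highest means at 3 h and 14 d.

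Among the ADAM genes, Adam8 was higher at 7 d (2.13, SE 0.53, adjusted p = 0.0246) and Adam12 at 21 d (2.34, SE 0.61, adjusted p = 0.0378). Ctsk, the collagen-cutting cathepsin of osteoclasts, had the smallest F-test adjusted p of the listed genes, 8.71e-13, and had 26.6 ± 6.32 CPM (3 mice) at 24 h and 946 ± 290 CPM (6 mice; SD) at 7 d, a log2 fold change against 0 h of 4.67 (SE 0.37, adjusted p = 7.62e-09). Ctss passed the F-test, as did the surface partners Bsg, an inducer of MMPs, and Cd44, on which Mmp9 can dock, with their highest means at 3 d, 21 d and 6 h. Timp4 and Reck, the other inhibitors listed, gave no call, and 1 of the 2 had enough counts to be tested.

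**Figure D5:**
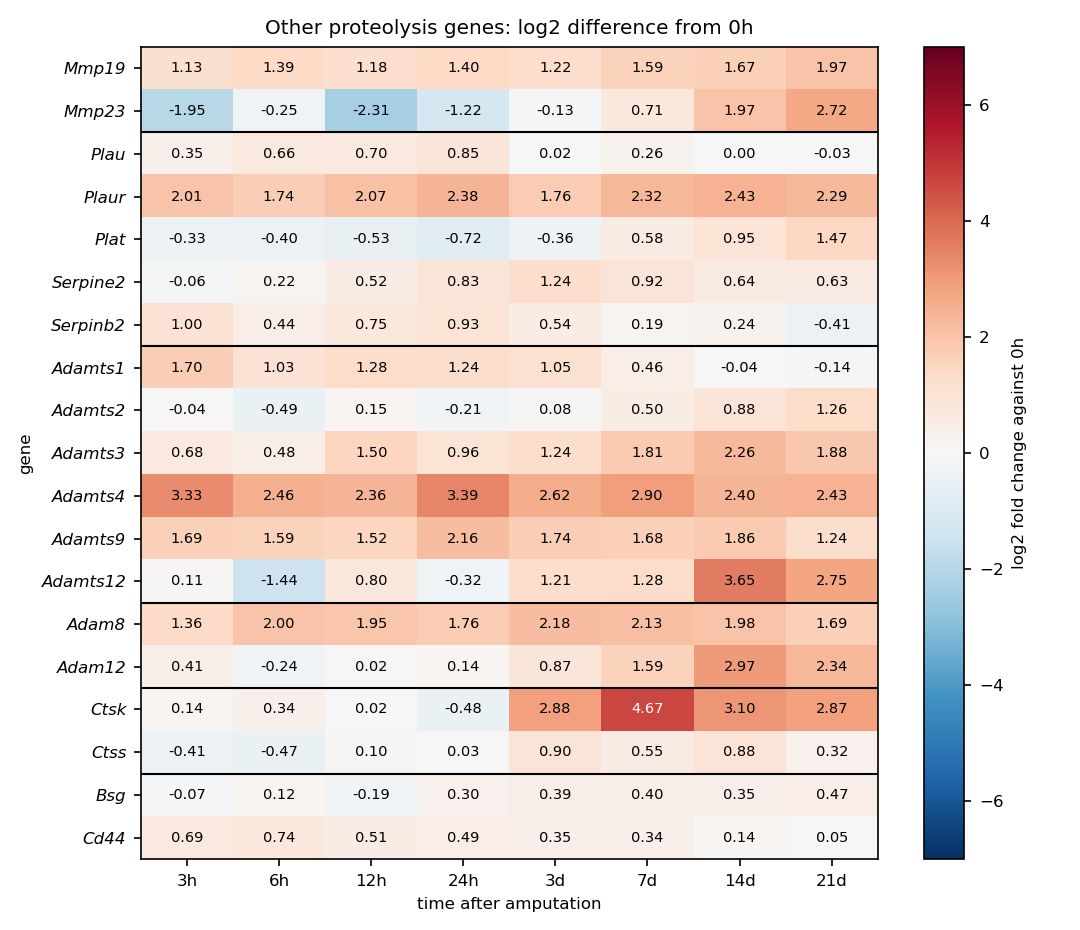
Fitted log2 fold change against 0 h (colour and printed number) at 8 time points (columns) for the 19 listed genes that passed the F-test or a test at 24 h, 7 d or 21 d (rows, with lines between the lists). Ctsk reaches 4.67 at 7 d, Adamts4 is at 3.39 at 24 h, and the values of Plaur lie between 1.74 and 2.43 at every time.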

How the data were processed

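Digit RNA of 30 mice was sequenced as single-end reads of 65 bases. The authors aligned reads to mouse transcripts (mm10, Ensembl annotation) with Bowtie and RSEM 1.2.3, after CASAVA 1.8.2, and deposited expected counts per gene, without normalization, and TPM. Deposited averages over mice were not used.

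Expected counts were rounded (78.1% were whole within 1e-06) and tested with edgeR 4.0.16 in R 4.3.3 (TMM, low-count filter by time point, quasi-likelihood tests, Benjamini-Hochberg at 0.05). The filter kept 13793 of 20321 genes, which hold 99.95% of counts. SE is the absolute log2 fold change over the root of F. Replicates were separate mice, and 39 pairs within time points differed beyond sampling (chi-square over its degrees of freedom, 9.83 to 94.7). A floor of 3 counts covers counting error only. Alternatives used DESeq2 1.42.0, and the methods were checked on simulated data. Tables and plots were made with Python 3.11.15, pandas 2.3.3, numpy 2.4.6 and matplotlib 3.10.9.

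The members and all gene lists were chosen with earlier results of these data known. Named are the members, listed genes past the F-test or a test at 24 h, 7 d or 21 d, and the 3 genes most like each member. A gene first listed with them is not reported here.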

Additional observations from a re-analysis of the deposited data

Results flagged for a closer look

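For 2 members, an effect differed between groups by a test of the difference itself. The time course of Mmp13 differed between the earlier and the later dates (adjusted p = 0.0254 for the interaction, edgeR's quasi-likelihood F-test). The call was lost for 6 of the 21 mice left out in turn, among them the 1 earlier mouse at 14 d. Mmp3 at 7 d differed between left and right feet (adjusted p = 0.00509), in a contrast chosen after the values were seen. Among the 10 members and the enzyme to inhibitor ratio, no mouse at 7 d lay far from the other 5 by Dixon's criterion. The criterion looks only at the single lowest or highest mouse, so that it cannot show a split such as that of Mmp3 by foot.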

How the results depend on the processing

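The direction of every member difference called at 24 h, 7 d or 21 d held under the alternatives run, and of 1090 recomputed member differences, called or not, 34 moved by more than the SD between mice. Of the members, 8 to 9 were called over the time course and always 3 at 24 h. At 7 d, 5 to 7 of them were called, and at 21 d, 5 to 6. The members were chosen on these same levels, so nothing is read from how steady their directions and calls were. Counts over all genes also moved. DESeq2's test called 2496 genes over the time course, 146 at 24 h, 596 at 7 d, 812 for the interaction and 63 for the foot. With dates as a covariate 528 were called at 7 d, and with only the mice of the 2 times 142 at 7 d and 463 at 21 d. The interaction called 696 genes with no filter and 272 without the left feet, and the foot 9 with no filter and 78 with no dates covariate. With each mouse left out in turn, counts ran from 952 to 1671 over the time course, 21 to 79 at 24 h, 107 to 439 at 7 d, 106 to 326 at 21 d, 2604 to 3454 for the dates, 5 to 447 for the interaction and 0 to 305 for the foot. The lowest counts came without 0 h mouse 1 at 24 h and 7 d, 21 d mouse 1 over the time course and at 21 d, 7 d mouse 2 for the dates, 24 h mouse 1 for the interaction and 7 d mice 3 or 6 for the foot.

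For the dates, the adjusted p of Mmp13 ran from 1.18e-05 to 0.0266 and that of Mmp2 from 0.00473 to 0.132 with 1 mouse left out, the latter above 0.05 without 6 h mice 1 or 2, 24 h mice 1 or 3, 3 d mice 1 or 2, or any 7 d mouse but 5. Without the left feet they were 0.0802 and 0.167. For the interaction, that of Mmp13 ran from 0.00999 to 0.761, above 0.05 without any 24 h mouse, 7 d mouse 2 or 14 d mice 1 or 3. For the foot, that of Mmp3 ran from 0.00594 to 0.0963, above 0.05 without 7 d mice 3 or 6. The causes were not tested. With CPM in place of TPM the enzyme to inhibitor ratio was lower, 0.409 at 0 h, 0.629 at 3 h, 0.823 at 6 h and 2.02 at 24 h. With 1 mouse left out it ran from 0.598 to 0.6253 at 0 h, 0.839 to 1.02 at 3 h, 1.297 to 1.456 at 6 h, 1.64 to 2.46 at 12 h, 2.80 to 3.55 at 24 h, 2.07 to 2.58 at 3 d, 3.02 to 3.81 at 7 d, 1.70 to 2.06 at 14 d and 1.41 to 1.77 at 21 d. No paired analysis was made, since the paper describes a separate set of mice for each time point. The titles carry tags whose meaning is not given, and those of 0 h mouse 3 and 12 h mouse 2 have the same tag, date and foot. The dates in the titles were used only as 2 ranges. Depth limits Mmp10 and Mmp12, which had 0 counts in whole groups.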
